A study of Homo sapiens with 62 samples.

Results

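The comparison described here is the acute degradation of KLF5 in AsPC-1 cells, a human pancreatic ductal adenocarcinoma (PDAC) line of the classical subtype. It takes 20 of the 62 SLAM-seq libraries of the series: 10 treated for 4 h with the degrader dTAGv1 (dTAG) and 10 treated for 4 h with its inactive analogue (NEG). All 20 came from cells of the genotype FKBP12-F36V-FLAG-KLF5_sgEndogenousKLF5: the cells carry Cas9, a guide that disrupts the endogenous KLF5 gene, and a lentiviral KLF5 cDNA fused to the FKBP12 F36V degron, which dTAGv1 directs to the proteasome. The tagged copy, which KLF5's own promoter does not drive and which selected pools of cells carry, thus stands in for KLF5 in both groups, and no library of unedited cells enters the comparison. The libraries belong to 3 experiments, the first number of each replicate name, with 4, 2 and 4 libraries per treatment in experiments 1, 2 and 3. Per the labels, experiments 1 and 2 are batch 1 and experiment 3 is batch 2. Nothing states whether the libraries within an experiment came from separate cultures, so p-values measure the spread between these libraries, which may be technical. T3M-4, a line of the basal-like subtype with 4 dTAG and 4 NEG libraries from 2 experiments, serves below as the most like comparison.

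KLF5 is a zinc finger transcription factor of the Krüppel-like family, which binds GC-rich and CACCC-type DNA elements and acts at promoters and enhancers of epithelial genes. It is known in gut, skin and other epithelia for supporting proliferation, adhesion and lineage identity. SLAM-seq separates new from older RNA: 4-thiouridine, given here for the last 2 h of treatment, is read as a T-to-C (T>C) conversion after alkylation, so T>C reads come from RNA made during labelling, while all reads also count RNA that was made before. The question was which transcripts change within hours of losing KLF5, and which of those changes already show in the whole RNA pool.

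The T>C totals ran from 9906776 to 16601042 reads in the NEG and from 8296433 to 15533482 in the dTAG libraries, and the totals of all reads from 102320704 to 196686986 and from 106666681 to 171997143. In all reads the group has 9 dTAG libraries, because the deposited all-reads column of library 3.1 repeats the T>C column of another library. Levels are given as CPM, counts scaled to the normalised library total in the usual unit of reads per 1e+06. They compare libraries for 1 gene, not genes with each other, because the reads come from 3′ ends and some reads were counted more than once: the T>C counts of HR and EDAR are all multiples of 3 and those of ID1 of 2. By clustering on the T>C reads of their genes of largest variance, the 20 libraries were cut into 3 sets that the labels do not name. Sets A and B hold 4 NEG and 4 dTAG libraries each, drawn evenly from experiments 1 and 3, and set C is experiment 2, so set C and experiment 2 cannot be told apart. Results are given from a fit blocked by experiment, and with experiment and set both as the block where that moves a count. Markers of other cell types were low: the summed level of 13 non-epithelial markers lay between 11.5 and 25.4 CPM of all reads in the NEG libraries and between 12.1 and 29.5 in the dTAG libraries, most of it from LUM and CD68 and with CDH5 at 0, against 4484 to 8314 and 3503 to 7672 for 5 epithelial markers. These sums span different genes, so they compare the lists only roughly. Most of the epithelial sum came from KRT8, KRT18 and KRT19, with NEG medians of 2602, 2895 and 811 CPM. EPCAM had a NEG median of 222 CPM, while CDH1 with 12.4 CPM lay near LUM with 8.2 CPM. The 16 classical markers summed to between 961 and 2045 CPM in NEG and between 961 and 2296 in dTAG, and the 11 basal-like markers to between 23.4 and 59.1 and between 17.5 and 58.9. The classical markers FOXA2 and CLDN18 and the basal-like markers TP63 and KRT5 were near 0. The reads of KLF5 come from the 3′ end of its RNA and say nothing of the level of the protein.

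After 4 h of dTAG, 447 of the 11696 genes tested in T>C reads were called at an edgeR adjusted p under 0.05, which is 3.82% of them. The response was mainly a loss: 350 genes were lower (2.99%) and 97 were higher (0.829%). The lower genes had log2 fold changes from −4.53 to −0.31 with a median of −0.88, 135 of them lay at −1 or beyond, and 22 at −2 or beyond. The higher genes were changed less, from 0.22 to 1.44 with a median of 0.54, and 5 of them lay at 1 or beyond. The sign was the same in each of the 3 experiments for 347 of the lower and 93 of the higher genes. In 48 of the lower genes every dTAG library lay below every NEG library, which holds for 0.41% of all genes tested, and in 2 of the higher genes, STX3 and SFXN1, every dTAG library lay above every NEG library (0.0171%). Protein-coding genes made up 338 of the lower and 94 of the higher genes. With experiment and library set as the block 911 genes were called, 606 lower and 305 higher, and all 447 were among them. The sets were drawn from these same T>C counts, so the counts under that block are no independent check. With counts summed per experiment, which leaves 3 values per treatment, 164 of the 350 lower and 8 of the 97 higher genes were called, and without experiment 1 it was 63 and 2.

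The called genes were sorted by hand into functional classes after the calls were known, so the class counts are a description and carry no test. The largest classes were growth factors, guidance ligands and their receptors (36 lower, 7 higher), actin cytoskeleton and its regulators (34 lower, 3 higher), transcription factors and cofactors (33 lower, 15 higher) and kinases, phosphatases and adaptors (33 lower, 14 higher). Lower genes made up 78.3% of all calls, and most classes held a majority of lower genes: keratins, plakins and desmosome genes with 8 lower and 0 higher, laminins, integrins and cell-matrix adhesion with 18 and 2, ion channels and pumps with 10 and 2, plasminogen, coagulation and matrix proteases with 13 and 2, and cell junctions and polarity with 9 and 5. RNA-binding genes (3 lower, 6 higher) and ubiquitin genes (3 lower, 5 higher) were the classes with more higher than lower genes. A further 60 lower and 16 higher genes were assigned to no class. In what follows a value in parentheses after a gene is its log2 fold change ± SE in T>C reads unless another quantity is named, and every gene named with such a value passed the threshold unless stated. Genes beyond those the naming rule gives were chosen from the classes after their values were seen.

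**Figure D1:**
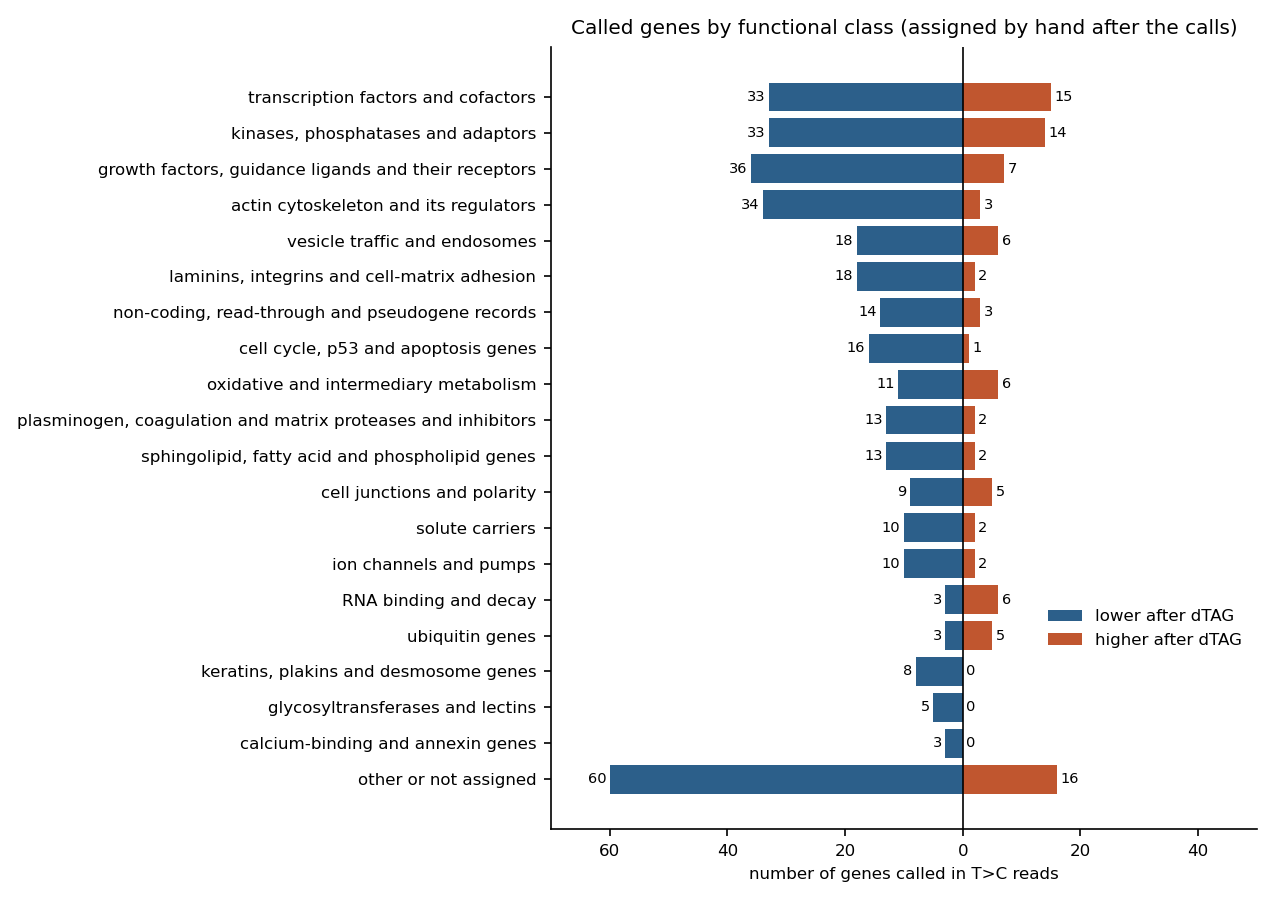
Number of genes called in T>C reads (horizontal axis) in each functional class (vertical axis), to the left for genes lower and to the right for genes higher after dTAG. The 350 lower genes exceed the 97 higher genes in most classes, and RNA binding and ubiquitin genes are the exceptions.

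In bulk RNA, fewer cells with a transcript and less of it per cell cannot be told apart. HR, among the lower genes of smallest p, encodes a histone demethylase and nuclear receptor corepressor. Its lowest, median and highest T>C levels were 23.6, 36.3 and 46.9 CPM in the NEG libraries and 3.01, 6.0 and 9.37 CPM in the dTAG libraries. The groups did not overlap, and the log2 fold change was −2.68 ± 0.19 (edgeR adjusted p 1.08e-07), with −2.81, −1.88 and −2.95 in experiments 1, 2 and 3. TNS4 (ENSG00000131746.13, chr17:40475828-40501623, minus strand on GRCh38) encodes a tensin, an adaptor at integrin adhesions. It lay at 28.9, 36.4 and 45.6 CPM in NEG and 2.39, 4.55 and 17.2 CPM in dTAG. The groups did not overlap either (−2.73 ± 0.23, edgeR adjusted p 4.59e-07), and the log2 fold change was −3.42, −1.29 and −2.79 in the experiments. EDAR (ENSG00000135960.10, chr2:108894471-108989372, minus strand), the ectodysplasin receptor of the TNF receptor family, had 8.31, 35.4 and 77.9 CPM in NEG and 1.08, 2.29 and 6.49 CPM in dTAG. It was the strongest fall among the genes of smallest p (−3.62 ± 0.38, edgeR adjusted p 5.7e-06), without overlap, and it also showed the widest gap between experiments, with −4.20, −1.15 and −4.12. The T>C reads of C1orf116 lay at 30.9, 57.1 and 71.4 CPM in NEG and 5.37, 10.6 and 29.7 CPM in dTAG, without overlap (−2.17 ± 0.21, edgeR adjusted p 3.54e-06).

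**Figure D2:**
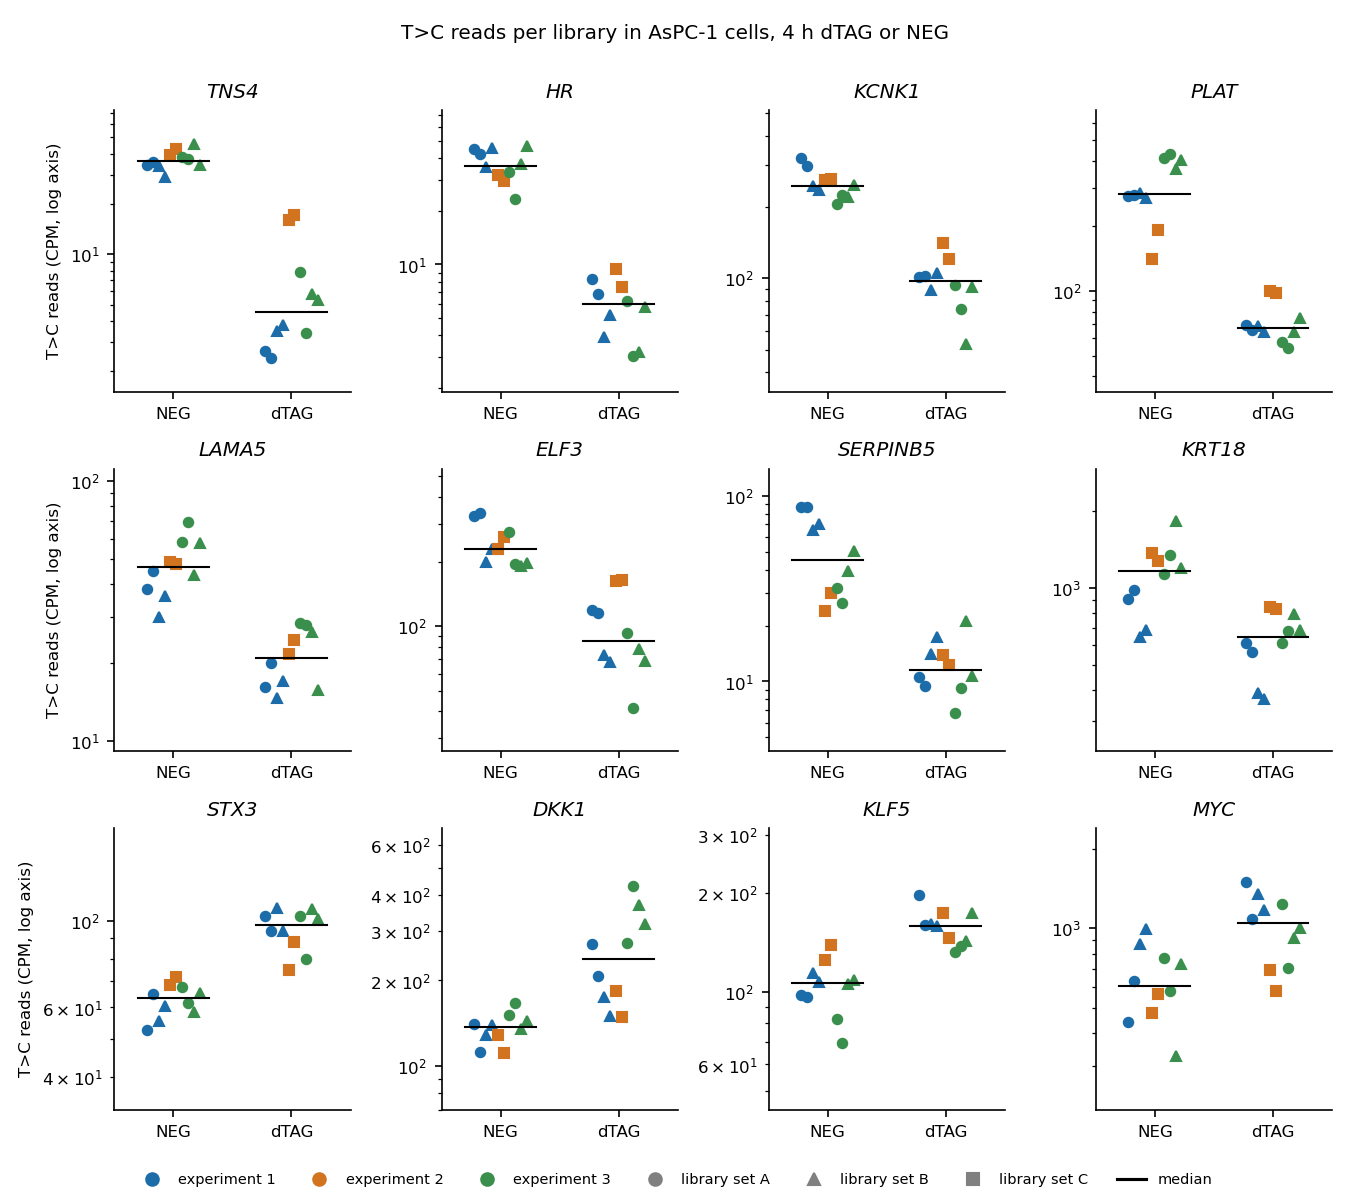
T>C reads of 12 genes in CPM (vertical axis, log scale) in each of the 10 NEG and 10 dTAG libraries, coloured by experiment and shaped by library set, with a line at the group median. TNS4, HR, KCNK1, PLAT, LAMA5, ELF3 and SERPINB5 lie lower in every dTAG than in every NEG library, STX3 lies higher in every dTAG library, and KRT18, DKK1, KLF5 and MYC overlap.

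KCNK1 (ENSG00000135750.15, chr1:233614106-233672514, plus strand), a leak potassium channel, went from 207, 246 and 322 CPM in NEG to 52.7, 97.5 and 140.4 CPM in dTAG. The groups did not overlap (−1.40 ± 0.11, edgeR adjusted p 2.03e-07, with −1.46, −0.99 and −1.53). SLC20A1 (ENSG00000144136.11), a sodium-dependent phosphate carrier, had 487, 633 and 849 CPM in NEG and 161, 243 and 354 CPM in dTAG, again without overlap (−1.43 ± 0.14, edgeR adjusted p 2.39e-06). Among channels and pumps, TMC7 (−1.71 ± 0.23), the calcium-activated chloride channel ANO1 (−1.10 ± 0.15), the potassium channels KCNK5 (−0.68 ± 0.10), KCNK6 (−0.65 ± 0.14) and KCNN4 (−1.36 ± 0.26) and the plasma membrane calcium pump ATP2B4 (−0.92 ± 0.14) were lower. Of 13 potassium channel genes tested 4 were lower and 0 higher, that is 30.8% against 2.99% of all genes, and their median log2 fold change was −0.45. The glucose carrier SLC2A1 (−1.54 ± 0.27, median 293 to 94.2 CPM) and the lactate carrier SLC16A3 (−1.61 ± 0.38) were lower, while the mitochondrial serine carrier SFXN1 (0.31 ± 0.07) and the amino acid carrier SLC38A2 (0.42 ± 0.11) were higher. Of 183 solute carriers 9 were lower and 1 was higher (4.92% and 0.546%), near the share of all genes. Of 23 ABC transporters 0 were called in either direction, against 3.82% of all genes. The 3′UTR of SLC16A3 overlaps that of CSNK1D on the other strand.

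Transcription regulators included the most higher genes of the named classes, 15, beside 33 lower ones. The HLH protein ID1 (ENSG00000125968.9, chr20:31605283-31606515, plus strand), which blocks DNA binding of its partners, lay at 74.5, 237 and 369 CPM in NEG and 34, 74 and 96.2 CPM in dTAG. The groups overlapped, with 5 of 10 dTAG libraries below every NEG library (−1.60 ± 0.14, edgeR adjusted p 4.59e-07). BCL3, an IκB-family coactivator, went from 31.5, 52.7 and 95 CPM to 12.1, 16.3 and 27.3 CPM without overlap (−1.62 ± 0.19, edgeR adjusted p 2.71e-05). The epithelial ETS factor ELF3 (−1.38 ± 0.17), the AP-1 subunit JUNB (−1.32 ± 0.22), the Hedgehog effectors GLI1 (−1.64 ± 0.46) and GLI2 (−0.96 ± 0.14), the homeobox factors PITX1 (−0.79 ± 0.16), MSX2 (−0.71 ± 0.15) and PBX4 (−1.23 ± 0.18), TFAP2A (−0.62 ± 0.14) and SOX8 (−1.05 ± 0.22) were lower. Corepressors were called in both directions. Lower were RCOR1 (−0.88 ± 0.14), TLE3 (−0.69 ± 0.13), NAB1 (−0.73 ± 0.10) and TOB1 (−1.09 ± 0.23), and higher were NAB2 (0.65 ± 0.13) and NR0B2 (1.44 ± 0.26). On the higher side stood SOX4 (0.86 ± 0.16), the orphan nuclear receptors NR4A2 (1.07 ± 0.21) and NR2F1 (0.71 ± 0.16), MYC (0.65 ± 0.16), MYB (0.73 ± 0.17), AHR (0.49 ± 0.13) and E2F7 (0.60 ± 0.15). NAB1 and NAB2 are related corepressors of EGR factors, and the 3′UTR of NAB2 overlaps that of STAT6 on the other strand.

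NR0B2 (ENSG00000131910.5, chr1:26911489-26913975, minus strand), an orphan receptor without a DNA-binding domain that represses bile acid synthesis genes, had the largest rise of any called gene. It lay at 4.41, 8.28 and 12.6 CPM in NEG and 11.7, 22.2 and 40.9 CPM in dTAG, with 8 of 10 dTAG libraries above every NEG library (1.44 ± 0.26, edgeR adjusted p 0.00193). KLF5 itself (ENSG00000102554.14, chr13:73054976-73077541, plus strand) rose in T>C reads (0.61 ± 0.10) and in all reads (0.56 ± 0.08), and was the 1 member of 14 KLF and SP genes tested that was called. Of 36 nuclear receptors and corepressors 5 were lower, HR, PPARA, PPARG and HNF4A among them, and 2 higher (NR2F1 and NR4A2). That is 13.9% and 5.56% against 2.99% and 0.829% of all genes. NR0B2 is not counted in that list. Of 18 endodermal and classical transcription factors HNF4A alone was called (−1.35 ± 0.35, edgeR adjusted p 0.0311, median 33.7 to 17.3 CPM), and the median of the 18 was −0.04. Of 20 epithelial ETS and grainyhead factors ELF3 alone was called. These single lower calls are 5.56% and 5% of the 2 lists, against 2.99% of all genes. Lists of coactivators, Mediator and chromatin readers (47 tested) and of RUVBL1/2 and its partner complexes (38 tested) had 0 called members in both T>C and all reads. Over all genes 3.82% were called in T>C reads and 1.64% in all reads.

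Ligands and receptors held the most lower genes of the named classes, 36. The ligands FGF18 (−2.28 ± 0.25) and FGF19 (−1.19 ± 0.16), PDGFA (−1.19 ± 0.13), the EGF receptor ligand TGFA (−1.08 ± 0.19) and WNT7B (−0.81 ± 0.12) were lower. FGF18 had 8.45, 17.1 and 20.7 CPM in NEG and 1.0, 2.87 and 8.5 CPM in dTAG, with 9 of 10 dTAG libraries below every NEG library. Among axon guidance genes, which were picked from the calls and not counted against a list, the lower ones were the ephrins EFNB1 (−1.01 ± 0.11), EFNB2 (−0.58 ± 0.11) and EFNA2 (−1.25 ± 0.25), their receptors EPHA2 (−1.0 ± 0.15) and EPHB4 (−0.68 ± 0.17), the semaphorins SEMA3B (−2.43 ± 0.51), SEMA4B (−0.72 ± 0.17), SEMA4G (−1.37 ± 0.23) and SEMA7A (−0.99 ± 0.22), the plexins PLXNA2 (−0.94 ± 0.16) and PLXNB1 (−0.87 ± 0.22) and the netrin receptor UNC5B (−2.18 ± 0.28). EFNB1 (ENSG00000090776.6, chrX:68829021-68842160, plus strand) had 69, 96.2 and 114 CPM in NEG and 35.8, 48.3 and 59 CPM in dTAG. UNC5B had 6.17, 10.9 and 27 CPM in NEG and 0.859, 2.4 and 4.4 CPM in dTAG. Neither gene's groups overlapped.

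Related receptors moved in opposite directions in 2 cases. LGR5 and LGR6 both bind R-spondins, which strengthen WNT signalling. LGR6 lay at 15.8, 25.1 and 56.4 CPM in NEG and 4.96, 6.29 and 11.7 CPM in dTAG, without overlap (−2.05 ± 0.23, edgeR adjusted p 1.57e-05). LGR5 (ENSG00000139292.13, chr12:71439798-71586310, plus strand) lay at 9.7, 14.2 and 29.8 CPM in NEG and 18.6, 28.1 and 44.6 CPM in dTAG, with 5 of 10 dTAG libraries above every NEG library (0.92 ± 0.14, edgeR adjusted p 0.000337). The neuropilins, coreceptors of semaphorins and VEGF, were split in the same way, with NRP2 lower (−1.52 ± 0.30) and NRP1 higher (0.62 ± 0.14). The secreted WNT antagonist DKK1 rose from 111.3, 137 and 167 CPM in NEG to 149, 238 and 432 CPM in dTAG (0.83 ± 0.13, edgeR adjusted p 0.000492), with groups that overlapped. Of 31 WNT genes 3 were lower (WNT7B, TCF7L1 and BCL9L) and 3 higher (LGR5, DKK1 and SOX4), 9.68% each way against 2.99% and 0.829% of all genes. LGR6, which was lower, is not counted in that list. Of 19 Notch genes the coactivator MAML2 (−0.51 ± 0.13), the glycosyltransferase LFNG (−1.24 ± 0.18) and DTX4 (−0.66 ± 0.12) were lower and the ligand JAG1 (0.47 ± 0.09) was higher, 15.8% and 5.26%. The TGF-beta receptor TGFBR2 (0.33 ± 0.09) was higher and its feedback inhibitor PMEPA1 (−0.31 ± 0.08) lower.

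**Figure D3:**
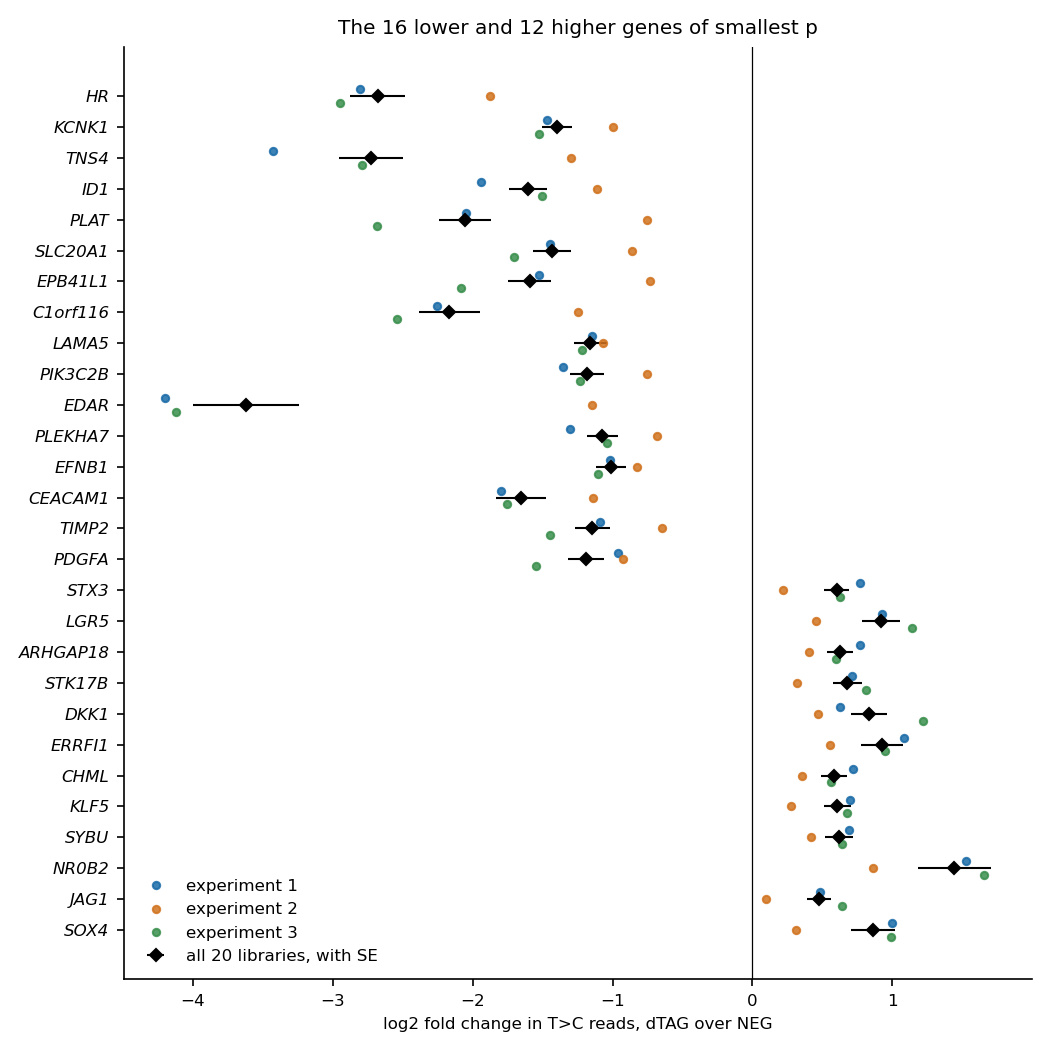
Log2 fold change in T>C reads (horizontal axis) of the 16 lower and 12 higher genes of smallest p (vertical axis), with diamonds and SE bars for all 20 libraries and a coloured point for each experiment. All 28 genes have 1 sign in the 3 experiments, and experiment 2 lies nearest 0 in each of them.

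The median changes differed between experiments, a difference that was not tested. The median log2 fold change of the 350 lower genes was −0.91 in experiment 1, −0.53 in experiment 2 and −1.01 in experiment 3, and experiment 2 gave the smallest change in 273 of them. The 97 higher genes had medians of 0.54, 0.34 and 0.63, with the smallest change in experiment 2 for 73. Experiment 2 has 2 libraries per treatment and is library set C, so its smaller response cannot be told apart from the set. These genes were called on the same libraries, and their directions within experiments are therefore a description. Within batch 1 alone 211 genes were called in T>C reads, of which 176 were lower, and within batch 2 alone 16 were called, all lower. Without experiment 1 the count was 67 and without experiment 2 it was 334.

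The cell-matrix adhesion class, 18 genes lower and 2 higher, ran from ligands to cytoskeletal linkers. The laminin chain LAMA5 (ENSG00000130702.15, chr20:62307955-62367312, minus strand) had 30.1, 46.7 and 69.5 CPM in NEG and 14.6, 20.8 and 28.4 CPM in dTAG. There was no overlap and the experiments lay close together (−1.16 ± 0.12, edgeR adjusted p 4.99e-06, with −1.15, −1.07 and −1.22). LAMA3 (−2.21 ± 0.37) and LAMB3 (−1.20 ± 0.32), chains of the hemidesmosome ligand laminin-332, were lower together with the hemidesmosome integrin chains ITGA6 (−0.61 ± 0.13) and ITGB4 (−0.93 ± 0.18) and the plakin PLEC (−0.82 ± 0.12), which links them to keratins. These 5 are the called members of 12 hemidesmosome and laminin-332 genes tested, 41.7% against 2.99% of all genes, with 0 higher and a median of −0.53. PLEC had 351, 444 and 809 CPM in NEG and 199.7, 256 and 345 CPM in dTAG, without overlap, and its counts are all multiples of 9. Integrin activators and adhesion adaptors were lower too: FERMT1 (kindlin-1, −1.40 ± 0.16), TLN2 (talin 2, −1.80 ± 0.23) and FBLIM1 (−0.61 ± 0.10), with FERMT1 and TLN2 without overlap. So were the proteoglycan SDC1 (−0.93 ± 0.21), the tetraspanins CD9 (−0.90 ± 0.23) and CD82 (−0.88 ± 0.24), and the heparan sulfate sulfatase SULF2 (−1.04 ± 0.16), whose 3′UTR overlaps that of NCOA3 on the other strand. The exceptions in the class were CD44 (0.34 ± 0.08) and the laminin chain LAMB1 (0.49 ± 0.13), which were higher. The 3′UTR of LAMB1 overlaps that of DLD on the other strand.

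Keratins of simple epithelia were lower: KRT18 (−0.83 ± 0.12), KRT19 (−0.67 ± 0.13) and KRT8 (−0.57 ± 0.13). They are 3 of the 5 simple keratins tested, 60% against 2.99% of all genes. In all reads 0 of 7 were called, where 1.23% of all genes were lower, and their median was −0.33. KRT18 had 642, 1164 and 1828 CPM in NEG and 366, 645 and 845 CPM in dTAG, with 5 of 10 dTAG libraries below every NEG library. KRT8 overlapped more widely, from 925, 1147 and 1688 CPM in NEG to 371, 770.4 and 1489.8 CPM in dTAG. KRT18 has processed pseudogenes, and 2 of them, KRT18P10 and KRT18P13, were called lower as well, so reads of these 3 records may be split between them. KRT16, a keratin of stratified epithelia, was lower at a low level (−2.33 ± 0.50, median 3.05 to 0.749 CPM). The desmosome genes PKP3 (−0.87 ± 0.19) and JUP (−0.83 ± 0.21), which encode plakophilin 3 and plakoglobin, were the called 2 of 9 tested (22.2%). In all reads 0 of 14 desmosome genes were called, with a median of −0.19. Both zeros in all reads lie near the share of all genes. Junction and polarity genes were split, with 9 lower and 5 higher. PLEKHA7, a protein of the adherens junction belt, was lower without overlap (−1.07 ± 0.11, from 37.4, 46.7 and 59.7 CPM to 15.5, 21.9 and 31.5 CPM), and so was the adhesion molecule CEACAM1 (−1.66 ± 0.18, from 17, 31.4 and 62.8 CPM to 6.91, 9.45 and 16.8 CPM). LLGL2 (−1.31 ± 0.23), TJP3 (−1.12 ± 0.23), PCDH1 (−1.34 ± 0.29) and the connexin GJB5 (−1.52 ± 0.32) were lower. NF2 (0.55 ± 0.13), PTPN14 (0.48 ± 0.11) and CXADR (0.41 ± 0.11) were higher. Of 24 tight junction genes 1 was lower and 1 higher, 4.17% each way against 2.99% and 0.829% of all genes, and the median was 0.12.

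The actin class held 34 of the lower and 3 of the higher calls. In the list of actin and adhesion regulators 3 of 38 tested genes were lower (7.89% against 2.99% of all genes) and 0 higher, with a median of −0.12, and in all reads 1 of 40 was lower (2.5% against 1.23%). EPB41L1, a membrane skeleton protein, lay at 457, 582 and 878 CPM in NEG and 103, 206 and 379 CPM in dTAG, without overlap (−1.59 ± 0.15, edgeR adjusted p 2.76e-06). The small GTPase RHOF (−1.40 ± 0.18), which drives filopodia and whose 3′UTR overlaps that of TMEM120B on the other strand, the exchange factors VAV2 (−1.16 ± 0.17), PLEKHG5 (−1.30 ± 0.22), ARHGEF16 (−1.15 ± 0.19), ARHGEF2 (−0.97 ± 0.26) and NET1 (−0.81 ± 0.14), the bundling protein FSCN1 (−0.92 ± 0.17), the formin INF2 (−0.91 ± 0.15) and ezrin, EZR (−0.42 ± 0.10), were lower. Brush border genes had 5 lower members of 25 tested, EPS8L2 (−0.72 ± 0.20), EPS8L3 (−0.87 ± 0.20), EZR, MISP (−1.38 ± 0.28) and BAIAP2L2 (−1.09 ± 0.17), and EPS8 (0.52 ± 0.11) was higher. That is 20% lower against 2.99% of all genes in T>C reads, with a median of −0.45, and in all reads 2 of 28 were lower (7.14% against 1.23%). The GTPase-activating proteins ARHGAP18 (0.63 ± 0.09) and ARHGAP29 (0.46 ± 0.11) were higher. ARHGAP18 (ENSG00000146376.11) had 26.3, 35.3 and 49.8 CPM in NEG and 42.1, 56.9 and 67.8 CPM in dTAG, with 8 of 10 dTAG libraries above every NEG library.

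Plasminogen activation was the list with the largest share of lower members among those of more than 5 tested genes. Of 13 genes tested, 7 were lower (53.8% against 2.99% of all genes) and 1 higher. PLAT, the tissue plasminogen activator, lay at 140.1, 281 and 429 CPM in NEG and 54, 67.1 and 99.5 CPM in dTAG. The groups did not overlap (−2.05 ± 0.18, edgeR adjusted p 8.94e-07), and the log2 fold change was −2.04, −0.75 and −2.69 in experiments 1, 2 and 3. The urokinase PLAU (−0.72 ± 0.16) and its receptor PLAUR (−1.21 ± 0.20), thrombomodulin, THBD (−0.68 ± 0.10), tissue factor, F3 (−0.55 ± 0.11), SERPINB5 (−1.90 ± 0.23) and the plasminogen receptor component ANXA2 (−0.40 ± 0.10) were lower. PLAUR went from 524, 807 and 1621 CPM to 201, 382 and 567 CPM with 8 of 10 dTAG libraries below every NEG library. The gene that rose was TFPI (0.75 ± 0.15), the inhibitor of the tissue factor pathway, so an initiator of coagulation and its inhibitor changed in opposite directions. The metalloprotease inhibitor TIMP2 lay at 159.9, 210.1 and 306 CPM in NEG and 72.5, 102 and 127 CPM in dTAG, without overlap (−1.14 ± 0.12, edgeR adjusted p 7.1e-06). With MMP15 (−1.13 ± 0.30), ADAM8 (−1.04 ± 0.24) and ADAM15 (−0.91 ± 0.21) it made 4 lower of 13 metalloproteases and inhibitors (30.8%). In all reads 0 of 20 members of that list were called, where 1.23% of all genes were lower, with a median of −0.07. The kallikrein protease KLK10 was lower too (−1.40 ± 0.22).

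Signalling genes inside the cell went both ways. PIK3C2B, a class II phosphoinositide 3-kinase (−1.18 ± 0.12, from 23.4, 31.7 and 41.6 CPM to 9.68, 12.5 and 23 CPM), the tyrosine kinase PTK6 (−1.61 ± 0.22), the adaptor SH3BP2 (−1.21 ± 0.17) and the ERK phosphatase DUSP4 (−0.73 ± 0.09) were lower without overlap. RASSF5, a Ras and Rap effector, had 11.7, 32.2 and 44 CPM in NEG and 1.05, 4.76 and 15.9 CPM in dTAG (−2.61 ± 0.34), with 9 of 10 dTAG libraries below every NEG library. The kinases FER (−0.51 ± 0.09), TNK2 (−0.94 ± 0.19), CDK18 (−1.40 ± 0.28) and PINK1 (−1.15 ± 0.22) and the phospholipases PLCE1 (−0.80 ± 0.12) and PLCD3 (−1.39 ± 0.26) were lower. The EGF receptor inhibitor ERRFI1 rose from 38, 52.2 and 90.0 CPM to 61.6, 109 and 172 CPM (0.93 ± 0.15), and STK17B (0.68 ± 0.10), RASSF10 (1.04 ± 0.22), the G protein GNAI1 (0.57 ± 0.11), MAPK8 (0.42 ± 0.09), WEE1 (0.54 ± 0.13) and the ERK feedback inhibitor SPRY2 (0.50 ± 0.11) were higher. Of 19 ERK feedback and target genes 3 were lower (DUSP4, DUSP7 and CCND1) and 2 higher (SPRY2 and MYC), 15.8% and 10.5%. CCND1 and MYC are targets of the pathway and not feedback genes. The shares over all tested genes were 2.99% lower and 0.829% higher. Of 38 immediate-early and AP-1 genes 3 were lower (ID1, JUNB and ZFP36L2) and 0 higher, 7.89% lower. NR4A2, CSRNP1 and MYC, which also respond early to stimuli, were called higher and are not counted in that list. Of 36 YAP-TEAD genes 1 was lower (F3) and 3 higher (NF2, PTPN14 and FJX1), 2.78% and 8.33%.

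In the cell cycle and apoptosis class the CDK inhibitor CDKN1A was lower (−1.60 ± 0.27), with 55.4, 99.3 and 265 CPM in NEG and 25, 45.3 and 62.1 CPM in dTAG and 7 of 10 dTAG libraries below every NEG library. Its log2 fold change was −1.58, −1.55 and −1.64 in experiments 1, 2 and 3. CCND1, the G1 cyclin (−0.53 ± 0.11), the phosphatase CDC25B (−0.74 ± 0.12) and the p53 targets PHLDA3 (−1.91 ± 0.38) and TP53I3 (−1.40 ± 0.38) were lower, and CABLES1 (0.56 ± 0.13) was the 1 higher gene. Of 50 mitotic genes 1 was lower and of 43 DNA replication genes 1 was lower, that is 2% and 2.33% against 2.99% of all genes, with medians of 0.12 and 0.04. The 3′UTR of CCND1 overlaps that of LTO1 on the other strand. The death receptor genes TNFRSF1A (−0.48 ± 0.11) and TNFRSF25 (−1.55 ± 0.34) were lower, and so were TNFRSF6B (−0.76 ± 0.12) and the read-through record RTEL1-TNFRSF6B (−0.79 ± 0.12), which share 3′UTR bases and cannot be told apart. Of 33 NF-kB genes, cytokines and chemokines BCL3 and TNFAIP2 (−1.71 ± 0.33) were lower (6.06% against 2.99% of all genes) and 0 were higher.

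Of 40 sphingolipid enzymes 2 were lower and 0 higher (5% lower against 2.99% of all genes), and of 46 fatty acid and phospholipid enzymes 4 were lower and 1 higher (8.7% lower). The fatty acid hydroxylase CYP4F12 lay at 3.1, 9.25 and 16.4 CPM in NEG and 0, 0 and 2.58 CPM in dTAG, without overlap. Its fitted change (−4.53 ± 0.72) therefore depends on the small count added to avoid logarithms of 0, and the same holds for A4GALT, which makes the globoside Gb3 (−3.50 ± 0.82, dTAG median 0). FA2H, the sphingolipid fatty acid hydroxylase (−1.78 ± 0.31, median 15.6 to 5.75 CPM), the prostaglandin E synthase PTGES (−1.61 ± 0.30), the acyltransferase AGPAT2 (−1.05 ± 0.19) and the phospholipase PLAAT3 (−0.87 ± 0.16) were lower, and the fatty acid elongase ELOVL6 (0.58 ± 0.14) was higher. Of 26 enzymes of mucin-type glycosylation 4 were lower, GCNT3, which branches mucin core glycans (−1.36 ± 0.23), B3GALT5 (−0.74 ± 0.13), ST3GAL4 (−0.78 ± 0.17) and FUT2 (−1.58 ± 0.40), and 0 higher (15.4% lower). GCNT3 had 78.1, 139 and 269.7 CPM in NEG and 25.4, 51.4 and 88.8 CPM in dTAG, with 8 of 10 dTAG libraries below every NEG library. The mucins and trefoil factors themselves had 0 called members of 8 tested, against 3.82% of all genes, with a median of −0.28. MUC1, a classical marker, had a log2 fold change of −2.28 that did not pass (edgeR adjusted p 0.124), and its levels in all reads spread from 26 to 269.8 CPM in NEG and from 10.2 to 238.6 CPM in dTAG. Oxidative metabolism had 11 lower genes with small changes, such as SDHA (−0.41 ± 0.09) and OGDH (−0.51 ± 0.12), and 6 higher, such as TXNRD1 (0.59 ± 0.14) and ODC1 (0.54 ± 0.12). Of 27 sterol synthesis genes 0 were called, against 3.82% of all genes.

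In vesicle traffic, STX3, a SNARE of apical delivery (ENSG00000166900.17, chr11:59713456-59805882, plus strand), was the higher gene of smallest p. It lay at 52.5, 63.3 and 71.7 CPM in NEG and 74.8, 97.6 and 108 CPM in dTAG, without overlap (0.60 ± 0.09, edgeR adjusted p 0.000312), and it did not pass with counts summed per experiment (edgeR adjusted p 0.117). The Rab escort protein CHML (0.58 ± 0.09) and SYBU (0.62 ± 0.10) were higher, and the lysosome fusion adaptor PLEKHM1 (−1.25 ± 0.19), RAB15 (−1.47 ± 0.38) and EHD1 (−0.43 ± 0.11) lower. The ubiquitin genes that rose included STAMBPL1 (0.74 ± 0.14), RNF19A (0.55 ± 0.11) and ZFAND5 (0.54 ± 0.12). Among RNA-binding genes HNRNPA1 (0.34 ± 0.08) and PCBP2 (0.22 ± 0.06, with the opposite sign when scaled by all reads) rose and the mRNA decay factors ZFP36L2 (−0.60 ± 0.09) and ZC3H12A (−0.45 ± 0.12) fell. Of the 17 non-coding, read-through and pseudogene records 14 were lower, and several lie beside a lower coding gene, such as SH3TC2-DT (−2.85 ± 0.44) beside SH3TC2 (−1.16 ± 0.18) and SLC2A1-DT (−1.53 ± 0.35) beside SLC2A1. The strand setting of the counting is not given in the sources used here. By their 3′UTR exons 37 of the 350 lower and 11 of the 97 higher genes share bases with another gene of the table, and their reads cannot be assigned with certainty. Those named here also include SEMA4G, PLCD3, DTX4, TJP3, BCL9L, TNFRSF25, GLI1, PCBP2 and SDHA. Some lists had 0 called members in T>C reads, against 3.82% of all genes. They were ribosomal proteins (78 tested), mitochondrial ribosomal proteins (79), proteasome subunits (40) and translation factors (77). The others were histones (14), tubulins and kinesins (46), heat shock genes (24) and BCL2 family genes (16). In the small lists 0 calls lie near the share of all genes.

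Promoters are shown for the named genes that hold a GC/GT box of the type KLF factors bind. The letters searched were GGGNGTGG and, on the other strand, CCACNCCC, and no other motif was searched, over the 300 bases from 250 before to 50 after each start in a RefSeq table on GRCh38.p14. It is held by 6025 of 35116 promoters of that table (17.2%). Of the 28 genes of smallest p named above 19 were in the table and 15 had a single promoter that could be shown, and 4 of these hold the motif: SLC20A1, PIK3C2B and EFNB1 among the lower genes and ARHGAP18 among the higher. The table covered 76.9% of the lower, 80.4% of the higher and 78.4% of all tested genes, so the shares of these sets were not compared. The 250 bases before each start are printed 5′ to 3′ on the strand of the gene, from RefSeq, in lower case with the motif in capitals. They are chr2:112645689-112645938 (SLC20A1, plus strand), chr1:204494806-204495055 (PIK3C2B, minus strand), chrX:68828771-68829020 (EFNB1, plus strand) and chr6:129710178-129710427 (ARHGAP18, minus strand).
SLC20A1: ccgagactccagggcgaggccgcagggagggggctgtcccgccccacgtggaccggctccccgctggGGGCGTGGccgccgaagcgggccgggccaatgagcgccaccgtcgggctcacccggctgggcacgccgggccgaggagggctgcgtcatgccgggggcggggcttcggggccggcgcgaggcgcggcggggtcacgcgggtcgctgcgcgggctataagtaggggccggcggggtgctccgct
PIK3C2B: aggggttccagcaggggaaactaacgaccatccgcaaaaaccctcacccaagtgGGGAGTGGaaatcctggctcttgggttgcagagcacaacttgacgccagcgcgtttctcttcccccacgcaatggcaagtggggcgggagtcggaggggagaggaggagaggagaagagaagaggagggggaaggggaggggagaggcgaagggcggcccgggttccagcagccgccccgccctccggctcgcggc
EFNB1: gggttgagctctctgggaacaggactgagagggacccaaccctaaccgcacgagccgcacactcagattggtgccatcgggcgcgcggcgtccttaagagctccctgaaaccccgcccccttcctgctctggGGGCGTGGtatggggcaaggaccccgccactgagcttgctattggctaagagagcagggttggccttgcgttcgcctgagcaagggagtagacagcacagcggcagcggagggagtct
ARHGAP18: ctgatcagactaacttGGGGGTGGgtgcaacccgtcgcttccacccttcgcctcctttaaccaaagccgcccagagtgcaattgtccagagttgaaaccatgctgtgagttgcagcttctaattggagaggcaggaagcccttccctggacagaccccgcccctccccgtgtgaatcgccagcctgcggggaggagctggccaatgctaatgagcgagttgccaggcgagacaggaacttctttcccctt
The motif begins 183 bases before the start in SLC20A1, 196 in PIK3C2B, 118 in EFNB1 and 234 in ARHGAP18. A match is a description of the letters, and binding at these promoters was not measured here.

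In all reads the same comparison called 229 of 13931 genes (1.64%), 171 lower (1.23%) and 58 higher (0.416%). The lower genes had a median log2 fold change of −0.77 and reached −3.32, and the higher genes a median of 0.53 and reached 1.33. All 229 had 1 sign in the 3 experiments. The groups did not overlap in 33 of the lower genes (0.244% of all tested genes lie apart in this direction) and in 4 of the higher genes (0.0287%), among them SYBU, with 41.1, 51.2 and 68.3 CPM of all reads in NEG and 72.1, 82.6 and 92.5 CPM in dTAG. The 2 read types shared 141 lower genes, 40.3% of those called in T>C reads and 82.5% of those called in all reads, and 37 higher genes, 38.1% and 63.8%. When the counts were summed per experiment 0 genes were called in all reads (992 at an unadjusted p under 0.05, edgeR) and 223 in T>C reads. Without experiment 1 the count in all reads was 21, without experiment 2 it was 146, within batch 1 it was 108 and within batch 2 it was 25. With experiment and library set as the block it was 767. The T>C reads are part of all reads, so the overlap is not between independent measures. Of the 350 lower genes 347 were also lower in all reads, with a median there of −0.50, and the change was smaller in all reads for 336 of them. Of the 97 higher genes 96 were higher in all reads, with a median of 0.39, and 88 were changed less there.

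Genes differed in how far the loss had reached the whole pool. ID1 (−1.66 in all reads against −1.60 in T>C reads), JUNB (−1.32 against −1.32) and SLC20A1 (−1.42 against −1.43) fell about as much in all reads. EDAR (−3.14 against −3.62) and TNS4 (−2.31 against −2.73) fell by more than 2 in both. In the read-type test given below, their T>C reads fell more than their unconverted reads. The differences were −0.92 ± 0.23 for EDAR and −0.58 ± 0.14 for TNS4 (edgeR adjusted p 0.0465 and 0.0453). TNS4 had 13.2, 18.4 and 23.7 CPM of all reads in NEG and 2.36, 2.74 and 10.3 CPM in dTAG, without overlap. TIMP2 (−0.21 against −1.14), KLK10 (−0.16 against −1.40), ANO1 (−0.14 against −1.10), LGR6 (−0.34 against −2.05) and ITGB4 (−0.33 against −0.93) were called in T>C reads and not in all reads. KLK10 had 174, 335 and 427 CPM of all reads in NEG and 145, 321 and 373 CPM in dTAG, groups that overlapped almost entirely. Over all lower genes 141 of 350 (40.3%) were called in all reads too. By class, with no test of the differences, it was 23 of the 33 lower transcription factors, 18 of the 36 lower ligands and receptors, 6 of 18 adhesion genes, 2 of 8 keratin and desmosome genes and 0 of 11 oxidative metabolism genes.

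The labelled share of a gene, the percent of its reads in the NEG libraries that carried T>C conversions, ordered these differences. Over all tested genes it was divided at 11.2% and 20.99% into 3 classes of equal size. The lower genes numbered 128, 116 and 106 in the classes from low to high labelled share, and their median log2 fold changes in T>C reads were alike, −0.87, −0.88 and −0.91. In all reads the medians were −0.34, −0.52 and −0.71, and 13.3%, 43.97% and 68.9% of the genes were called there. Among higher genes 58 of 97 stood in the class of highest labelled share, of which 31 were called in all reads, against 0 of the 13 in the lowest class. A gene with a larger labelled share has more T>C reads among its reads, so the 2 measures are not independent. JUNB had a labelled share of 54.7%, EDAR 47.9%, ID1 53.8% and MYC 65.2%, while KLK10 had 3.85%, LGR6 5.57% and ITGB4 6.36%. MYC was not called in all reads despite its large share.

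**Figure D4:**
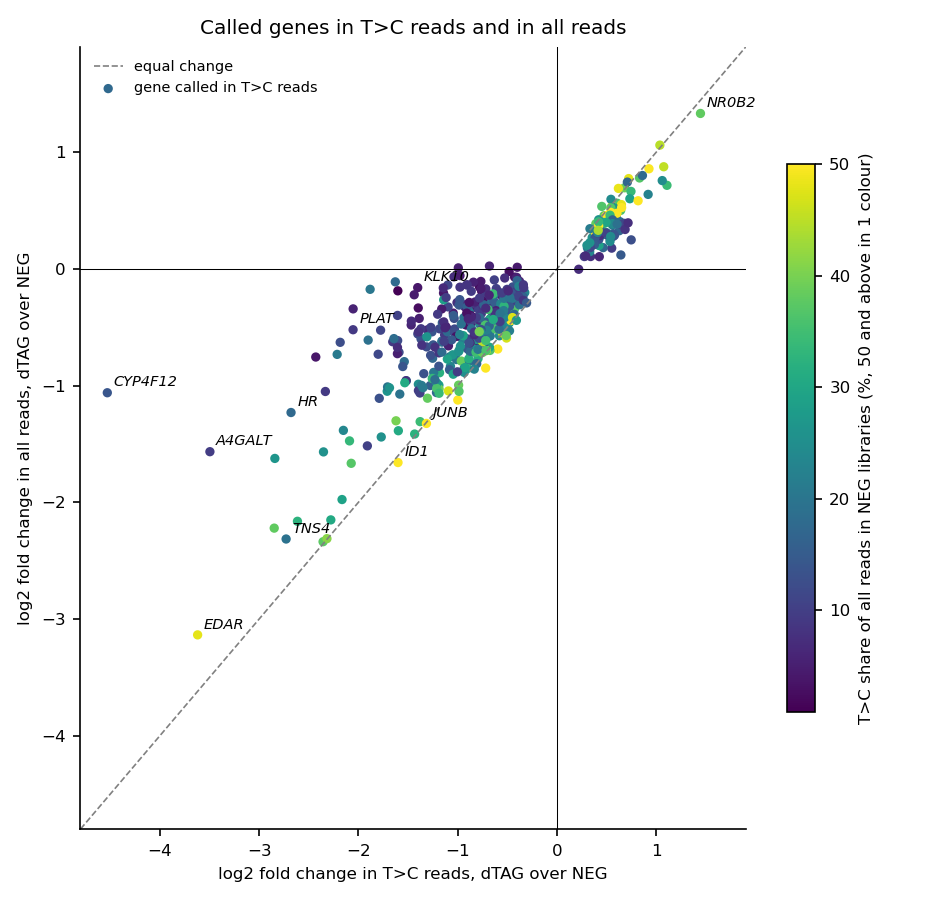
Log2 fold change in T>C reads (horizontal axis) against that in all reads (vertical axis) for each gene called in T>C reads, coloured by its labelled share in the NEG libraries, with a dashed line of equal change. Most lower genes lie above the line, closer to 0 in all reads, with medians of −0.88 in T>C and −0.50 in all reads.

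The difference between read types was tested itself, by comparing the change of T>C reads with that of the unconverted reads of the same libraries. Of 13953 genes 210 differed (1.51%), 174 with T>C reads lower relative to unconverted reads (1.25%) and 36 with T>C reads higher (0.258%). Of the 174 genes 116 were among those called lower in T>C reads. PLAT changed by −0.48 in unconverted reads, and its T>C reads changed by −1.52 ± 0.16 relative to them (edgeR adjusted p 2.3e-05). SULF2 changed by −0.05 in unconverted reads with a difference of −0.95 ± 0.10 (edgeR adjusted p 2.3e-05), and FERMT1 (−0.51, difference −0.95 ± 0.09), EPB41L1 (−0.66, difference −0.92 ± 0.09), S100A4 (−0.41, difference −0.73 ± 0.07) and FAM83A (−0.54, difference −0.83 ± 0.09) followed. In each of these genes the unconverted reads fell less than the T>C reads. In the other direction the differences were smaller, for PRSS23 (0.47 ± 0.07), TM4SF1 (0.46 ± 0.07), CRIM1 (0.45 ± 0.07), TFPI (0.54 ± 0.09), LYPLA1 (0.36 ± 0.06) and EML4 (0.26 ± 0.05). With library set and experiment as the block 310 genes differed, without experiment 1 the count was 36, and without experiment 3 it was 84.

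In all reads alone 30 lower and 21 higher genes were called, of which 9 and 1 had too few T>C reads to be tested. RUNX3 (−1.12 ± 0.22 in all reads) and TFEB (−1.16 ± 0.25) were lower, and the cytokine receptor LIFR (0.61 ± 0.14), the receptor kinase MERTK (0.61 ± 0.11) and RIPK2 (0.51 ± 0.09) higher, each with the same sign in T>C reads without a call there. These genes were chosen after their values were seen.

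The labelled share of a whole library was lower after dTAG. Its lowest, median and highest values were 7.93%, 9.55% and 10.1% in the 10 NEG libraries and 7.58%, 7.93% and 8.67% in the 9 dTAG libraries, with overlap (exact permutation p 0.000346, two-sided, over all libraries without regard to experiment). Within experiments, NEG libraries lay between 9.45% and 9.88% and dTAG libraries between 7.89% and 8.67% in experiment 1, and between 8.87% and 9.23% and between 7.58% and 7.78% in experiment 2, both without overlap. In experiment 3 the ranges overlapped, with 7.93% to 10.1% in NEG and 7.66% to 8.19% in dTAG. Fold changes above are relative to the T>C total of each library, and the median change of all tested genes was 0.02. When T>C counts were scaled by the total of all reads instead, which also leaves out dTAG library 3.1, the median of all tested genes moved to −0.25, 1820 genes were lower and 21 higher, so 98.9% of the calls were lower in place of 78.3%. Without library 3.1 but scaled by the T>C total, the median was 0.01 and 463 genes were called, 353 of them lower (76.2%). With scaling by all reads, all 350 lower genes and 20 of the 97 higher genes were called, and 1 of the 447, PCBP2, changed sign. With neither a spike-in nor an unlabelled library among the samples analysed here, a background of unlabelled RNA read as T>C cannot be subtracted. A fall of new RNA in all genes and a difference in labelling cannot be told apart, and the higher genes are higher relative to the median gene.

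Gene lists taken from the study's own tables were counted in the same way, and since some were drawn from the same cell line they are no independent evidence of direction. Of 207 tested genes lower after KLF5 knockout in AsPC-1, 97 were lower here (46.9%) and 1 was higher, IGFBP1 (0.68 ± 0.17), with a median of −0.75. Of 199 genes near regions that lost H3K27 acetylation with KLF5, 47 were lower (23.6%) and 1 higher. Of 504 genes near classical KLF5 peaks 51 were lower and 8 higher (10.1% and 1.59%), and of 518 near basal-like KLF5 peaks 41 were lower and 5 higher (7.92% and 0.965%). Both subtype signatures held more lower than higher genes: 21 of 134 Moffitt Classical genes were lower and 1 higher, and 22 of 106 Moffitt Basal-like genes were lower and 2 higher, 15.7% and 20.8% lower against 2.99% of all genes, with medians of −0.27 and −0.08. TNS4 and SERPINB5 are Moffitt Basal-like genes, and ELF3 is a Moffitt Classical gene. In all reads 10 of 171 and 11 of 128 genes of these signatures were lower, 5.85% and 8.59% against 1.23% of all genes.

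In T3M-4 cells most of the genes lower in AsPC-1 had log2 fold changes below 0. The 350 lower genes had a median log2 fold change of −0.69 in T>C reads of T3M-4, and 302 of them (86.3%) were below 0, as were 48.3% of all 14088 genes in that fit. The 97 higher genes had a median of 0.19, and 66 (68.0%) were above 0, as were 51.7% of all genes. ELF3 changed by −2.01 in T3M-4, TNS4 by −1.32, PLEC by −0.88 and KLF5 by 0.91. The T3M-4 value of EDAR is poorly determined, since the SE of its difference between lines was 1.86. The difference between the lines was called for 29 genes (0.206%), 18 lower (0.128%) and 11 higher (0.0781%) in T3M-4 relative to AsPC-1, of which 7 were among the 350 lower and 1 among the 97 higher genes. PLAT fell in AsPC-1 and changed by −0.28 in T3M-4, a difference of 1.78 (edgeR adjusted p 0.00555), and ID1 changed by −0.55 in T3M-4 (edgeR adjusted p of the difference 0.0349). NR0B2, the largest rise in AsPC-1, changed by −2.75 in T3M-4, and the difference was not called (SE 1.18, edgeR adjusted p 0.239). The count of 29 lay between 12 and 34 when each T3M-4 library was left out in turn, lowest without dTAG 2.1. With 4 libraries a group in T3M-4, a gene without a called difference is not shown to respond alike in the lines.

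**Figure D5:**
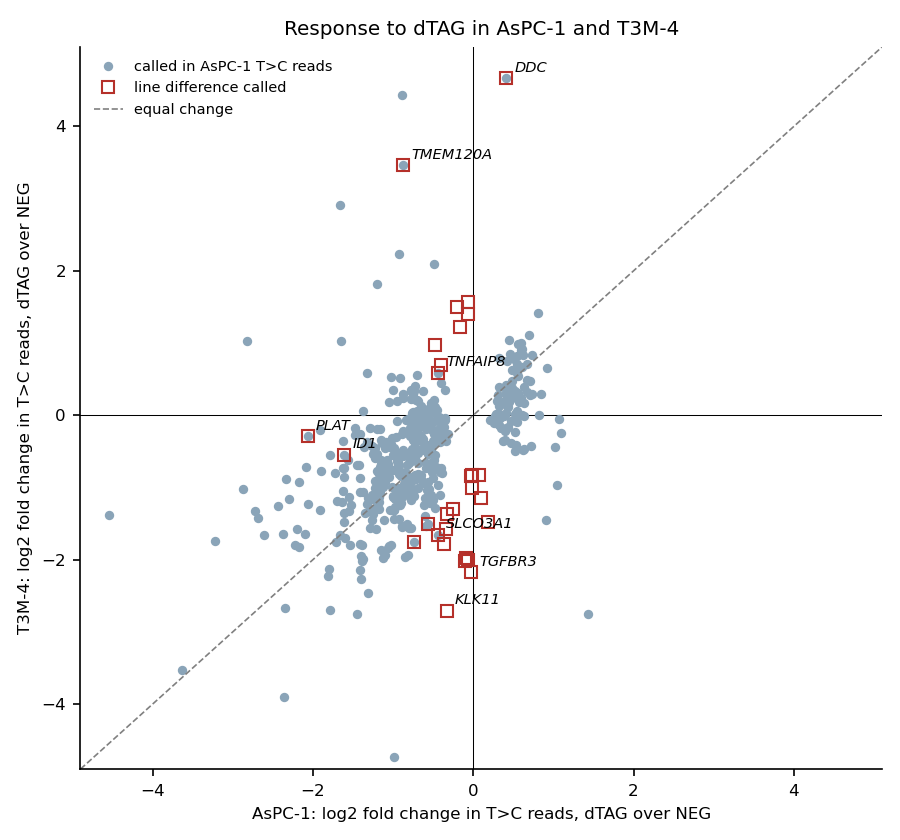
Log2 fold change in T>C reads after dTAG in AsPC-1 (horizontal axis) against T3M-4 (vertical axis) for genes called in AsPC-1 (filled points) and genes whose change differed between the lines (red squares), with a dashed line of equal change. Of the 350 genes lower in AsPC-1, 302 lie below 0 in T3M-4, and PLAT and ID1 stand among the 7 whose change differed.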

How the data were processed

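SLAM-seq libraries of AsPC-1 cells after 4 h of dTAG or NEG were analysed, with those of T3M-4 for the difference between lines. The authors used slamdunk with default settings to align 3′ end reads to hg38 and to count them over 3′UTR exons of GENCODE v44, and deposited unnormalised counts of T>C reads and of all reads for 29794 genes. Columns were mapped to samples by name. The all-reads column of dTAG library 3.1 equals a T>C column of another library and was left out. Gene records were matched to GENCODE v44 for 29773 names.

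Genes that passed filterByExpr were tested with edgeR 4.0.16 in R 4.3.3 (TMM, glmQLFit, glmQLFTest), with the experiment as a block, and Benjamini-Hochberg adjusted p under 0.05 was called. The SE was taken as |log2 fold change| over √F. Experiments pair the groups, since their deviations from the group means correlate (0.485, 0.668 and 0.536 for experiments 1, 2 and 3). No pair of libraries of a group agreed within counting noise (lowest chi-square per degree of freedom 11.9). T>C and unconverted reads, and the 2 lines, were compared by interaction terms. The labelled share was tested by exact permutation. Depth is given by the totals in the text, and counts repeated over records make the counting error larger than they imply. Scripts were tested on simulated counts.

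List genes were matched by symbol or by a RefSeq synonym. The members and the lists were chosen with earlier results of these data known. The naming rule took the 16 lower and 12 higher genes of smallest p with 1 sign in 3 experiments, up to 5 called members of each list, 6 lower and 6 higher genes in all reads, 6 in each direction for the read-type and line differences, and KLF5. Alternatives were no block, RLE factors, no filter, DESeq2 1.42.0, counts summed per experiment, leaving out experiments or libraries, scaling by all reads, a block for library sets and, chosen after seeing the data, each of sets A and B alone. Library sets came from average-linkage clustering of the tested T>C counts by their 500 most variable genes, with the tree cut at 3 sets. Promoters are from RefSeq on GRCh38.p14. The other treatments of the series were not analysed here, and a few genes that the naming rule gives are not reported here. Python 3.11.15 with pandas 2.3.3, numpy 2.4.6, scipy 1.17.1 and matplotlib 3.10.9 made tables and figures.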

Additional observations from a re-analysis of the deposited data

Results flagged for a closer look

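In 3 of 112 groups of 10 or 9 libraries, over the 28 genes of smallest p, 1 library lay far from the others, where chance gives about 1 in 20 groups. EPB41L1 had 878 CPM of T>C reads in NEG 1.1, where the nearest library had 655 and the median was 582. It also had 628 CPM of all reads in that library, where the nearest had 513 and the median was 461. CEACAM1 had 62.8 CPM of T>C reads in NEG 3.4, where the nearest library had 39.1 and the median was 31.4.

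The response to dTAG in T>C reads differed between T3M-4 and AsPC-1 for 12 genes given here, by the interaction term of edgeR. Lower in T3M-4 relative to AsPC-1 were TGFBR3 (a difference of −2.14 in log2 fold change, adjusted p 0.000103), with a change of −0.03 in AsPC-1 and −2.17 in T3M-4, KLK11 (−2.37, adjusted p 0.00113), with −0.33 and −2.71, and SLCO3A1 (−1.21, adjusted p 0.00113), with −0.44 and −1.65. LRRC8A (−1.42, adjusted p 0.00528), with −0.37 and −1.78, CLCF1 (−1.89, adjusted p 0.00555), with −0.09 and −1.98, and DAAM1 (−0.90, adjusted p 0.0124), with 0.07 and −0.83, followed. The T>C counts of KLK11 in T3M-4 were 938 to 2196 in NEG and 102 to 372 in dTAG, and those of CLCF1 were 368 to 835 and 101 to 183, and neither gene's groups overlapped.

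Higher in T3M-4 relative to AsPC-1 were TMEM120A (4.35, adjusted p 0.00337), with −0.88 in AsPC-1 and 3.47 in T3M-4, PLAT (1.78, adjusted p 0.00555), with −2.07 and −0.28, GALT (1.38, adjusted p 0.00579), with −0.17 and 1.22, KRIT1 (1.09, adjusted p 0.0157), with −0.40 and 0.70, and SHROOM2 (1.70, adjusted p 0.0217), with −0.20 and 1.51. TMEM120A had 0 to 12 T>C counts in the T3M-4 NEG libraries and 5 to 149 in the dTAG libraries, and its 3′UTR overlaps that of POR on the other strand. For DDC the fitted difference was 4.26 (adjusted p 0.0146), with 0.41 in AsPC-1 and 4.67 in T3M-4, but its T3M-4 counts were 0 in each NEG library and 0 to 9 in dTAG, so the fitted value depends on the small count added to each library.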

How the results depend on the processing

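The 447 genes called in T>C reads (edgeR) became 281 without the replicate block (280 of them shared), 223 with counts summed per experiment (172 shared), 663 with DESeq2, of which 478 were lower, 1841 when scaled by all reads and 911 with the set and experiment block. Without experiment 1 the count was 67, without experiment 3 211 and in experiment 3 alone 16. Library set A alone gave 134 and set B alone 437, both chosen after seeing the data. The sets, also where they enter the block, were drawn from the tested T>C counts. RLE factors (445), no filter (401), leaving out experiment 2 (334) and leaving out dTAG 3.1 (463) moved it by less than 1.5 times. The 229 genes called in all reads became 111 without the replicate block, 413 with DESeq2, 767 with the set and experiment block and 0 when summed per experiment, 21, 146 and 108 without experiments 1, 2 and 3, 25 in experiment 3 alone and 28 in set A alone. The count was 230 with RLE factors, 193 with no filter and 246 in set B alone. The 210 genes that differed between read types became 119 without the replicate block, 36 without experiment 1, 84 without experiment 3, 310 with the set and experiment block, 148 without experiment 2 and 199 with RLE factors. The 29 line differences became 6 without the replicate block and 12 to 34 when each T3M-4 library was left out in turn. The cause of these shifts was not tested, beyond the fewer libraries in the smaller fits.

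Lower calls made up 78.3% of the T>C calls, 66.5% with the set and experiment block, 95.5% without experiment 1 and 90.1% with summed counts. Of 3802 values of genes given by the naming rule under alternatives, 2458 kept their side of the threshold, 1344 did not pass it and 0 changed direction. PCBP2, outside the rule, changed sign when scaled by all reads. The block by experiment rests on 3 experiments. Depth limits genes such as CYP4F12 and A4GALT, whose dTAG medians were 0.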
